A study of Homo sapiens with 12 samples.

Results

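Collagen genes were described here across nascent RNA libraries of the human osteosarcoma line U2OS. The members were the genes of the deposited count table whose symbol reads COL, a number, A and a number, and 44 of 60583 genes met that rule. Their annotated spans ran from 17.3 kb (COL9A2) to 494 kb (COL25A1), with a median of 133 kb, and 26 spanned 100 kb or more. By structural family the members were 11 fibrillar, 9 network-forming and 10 fibril-associated collagens (FACITs), 7 genes of types VI, VII and XXVIII, 4 transmembrane collagens, 2 multiplexins and COL26A1. The 12 libraries formed 4 groups of 3. Cells were either U2OS or its derivative U2OS-AsiSI, which expresses AsiSI-ER, a DNA-cutting enzyme joined to a hormone-binding domain. Each received siRNA for 48 h, either a control (siCtrl) or one that targets INTS11 (siINTS11). Both U2OS-AsiSI groups had also been given 4-hydroxytamoxifen (OHT), the ligand that brings the fusion into the nucleus, for 1 h. The labels give no OHT for the U2OS groups, so that nuclease, OHT and derivation of the line differ together. INTS11 encodes the endonuclease of Integrator, a complex that cleaves nascent RNA of RNA polymerase II, and siCtrl against siINTS11 was the comparison the study set up. The assay was TT-seq, which captures transcripts made during a short pulse of a thiolated nucleoside, so the values are of new RNA over introns and exons and not of messenger RNA or protein.

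Collagens are secreted or membrane-bound proteins of 3 chains wound into a triple helix. The fibrillar types I, II, III, V and XI build the load-bearing fibrils of bone, cartilage and skin, types V and XI set how those fibrils start and how thick they grow, and FACITs decorate their surface. Type IV forms the sheet of basement membranes, type VI the beaded filaments around cells, and type VII the fibrils that anchor epithelium. Osteoblasts, the lineage that osteosarcomas resemble, deposit type I collagen as the organic matrix of bone, and the chains are hydroxylated and folded in the endoplasmic reticulum before they are trimmed and cross-linked outside the cell.

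Libraries held 20704611 to 38065726 counts. In the AsiSI libraries, INTS11 itself had 284, 351 and 269 reads under siCtrl and 258, 212 and 277 under siINTS11, and its log2 fold change of -0.13 (SE 0.08) had an adjusted p of 0.172. In U2OS it fell by 0.42 (SE 0.09, adjusted p 6.08e-05). When library totals alone set the scale, edgeR gave 0.06 (adjusted p 0.551) in U2OS-AsiSI and -0.22 (adjusted p 0.0339) in U2OS. Nascent counts therefore do not check the label in U2OS-AsiSI, and in neither line do they measure messenger RNA or protein. Below, siINTS11 means the libraries labelled so. Among osteoblast markers, RUNX2 had 437 ± 8.40 CPM and ALPL 3.08 ± 0.746 in U2OS siCtrl (SD, n = 3), values not scaled to gene span. SP7, SPP1 and IBSP had at most 13 reads in any siCtrl library. BGLAP is listed at 0 in all 12 libraries, and whether that is silence or a matter of counting was not tested. Blood markers (PTPRC, CD14 and CD3E) had at most 7 reads in any library. CPM stands for counts per 1000000 of a library size scaled by TMM, the trimmed mean of M-values. Reads carry no molecular identifiers and are not independent molecules.

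Collagen genes took 0.316 to 0.330% of all counts in U2OS under siCtrl and 0.282 to 0.290% under siINTS11. In U2OS-AsiSI their share was 0.347 to 0.354% with the control siRNA and 0.336 to 0.350% with the other. The siRNA groups did not overlap in U2OS and did in U2OS-AsiSI. In every library 5 genes, led by COL4A2, held 63.3 to 68.2% of these reads. Levels are compared between genes only per kb of span. In U2OS-AsiSI given siCtrl (below, AsiSI siCtrl), 9 members reached 1 CPM per kb, 13 lay between 0.1 and 1, 11 between 0.01 and 0.1, and 11 below 0.01.

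**Figure D1:**
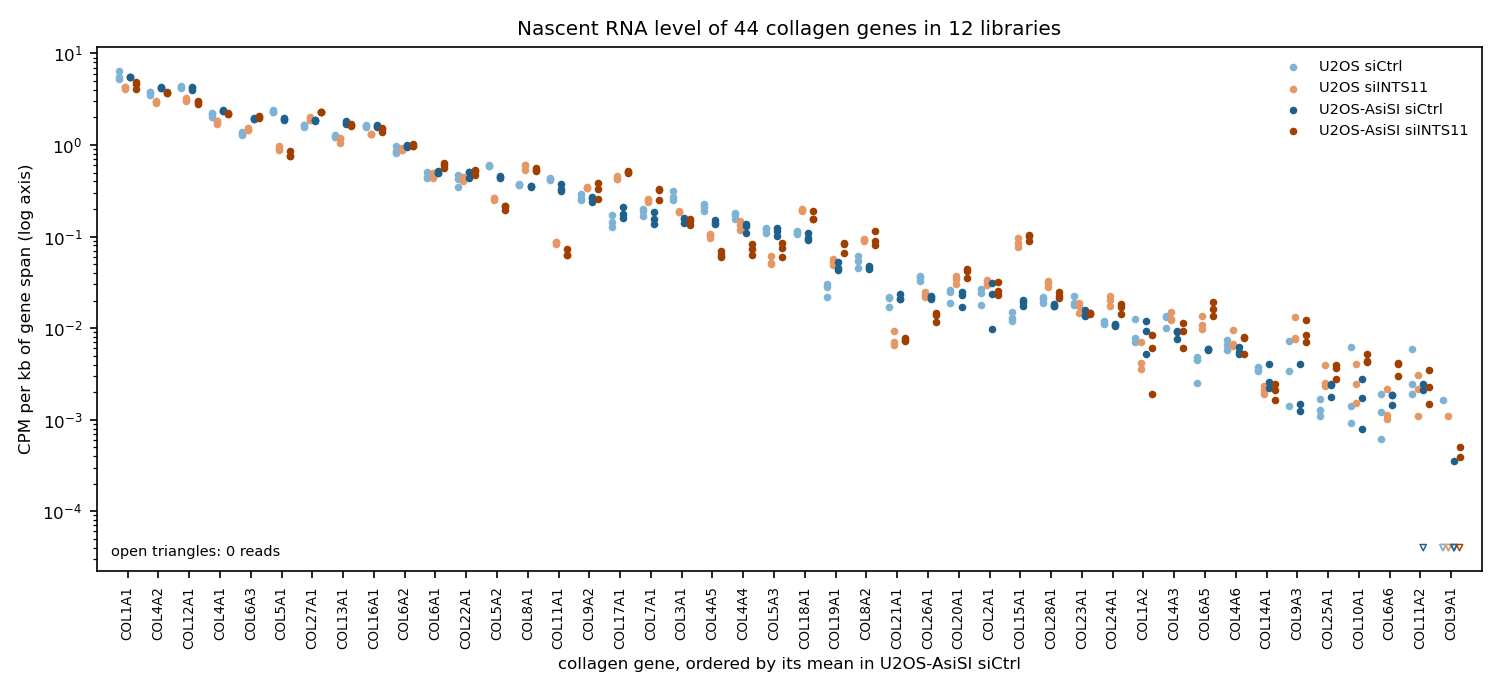
Level of each of the 44 collagen genes in CPM per kb of gene span on a log axis, 1 point per library, with genes ordered by their mean in U2OS-AsiSI siCtrl and open triangles for libraries with 0 reads. COL1A1, COL4A2 and COL12A1 lead in all 4 groups, and COL11A1 and COL15A1 show the widest gaps between siRNAs.

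COL1A1, the major chain of type I collagen of bone, was the densest member. It stood at 5.47 ± 0.0227 CPM per kb in AsiSI siCtrl and 4.55 ± 0.396 in AsiSI siINTS11 (SD, n = 3 each). The U2OS levels were 5.73 ± 0.637 with siCtrl and 4.24 ± 0.109 with siINTS11. Next in AsiSI siCtrl came COL4A2 at 4.21 ± 0.0394, a chain of all basement membranes, and COL12A1 at 4.15 ± 0.140, a FACIT found on type I fibrils. Their means differed by less than the SD of COL12A1. COL4A1, the partner chain of COL4A2, followed at 2.37 ± 0.0539, and COL6A3, the largest chain of type VI filaments, at 1.94 ± 0.00851. COL5A1 at 1.93 ± 0.0536 could not be told from COL6A3 by the spread of its libraries.

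The partner chain of COL1A1 was nearly silent. COL1A2 had 30 reads against 9511 for COL1A1 over the 3 U2OS libraries given siCtrl, and 17 against 7390 over those given siINTS11. In U2OS-AsiSI the reads were 28 against 8914 and 16 against 6724. Per kb of span the COL1A1 level was 628, 861, 631 and 832 times that of COL1A2 in these groups, and between 435 and 2145 times in single libraries. The 2 genes lie on different chromosomes (COL1A1 at chr17:50183289-50201632, minus strand; COL1A2 at chr7:94394895-94431227, plus strand). An opposite-strand gene, AC002074.1, overlaps COL1A2 and had 43 to 202 reads. COL1A2 failed the filter on low counts in both siRNA comparisons, so no change was tested.

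Several collagens of cartilage were scarce. COL2A1, the main fibril of cartilage, had 9 to 32 reads per library, COL10A1 of hypertrophic cartilage 1 to 7, COL11A2 0 to 5, COL9A3 1 to 11 and COL9A1 0 to 4. Others were not, with COL9A2 at 121 to 196 reads, COL11A1 at 2097 to 3607 under siCtrl and COL27A1 at 7174 to 10512. COL9A1 was at 0 in 7 of 12 libraries, where a count of 0 allows up to 3 reads or 0.0848 to 0.110 CPM, and COL11A2 was at 0 in 1, which allows 0.102 CPM. Such limits cover counting error only. COL10A1 lies inside NT5DC1, a gene of the opposite strand chosen here after its counts were seen, and NT5DC1 had 1372 to 2819 reads in the same libraries. Chondrocyte markers were present, with SOX9 at 30.04 ± 2.29 CPM and ACAN at 5.85 ± 0.862 in U2OS siCtrl.

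In the comparison of siINTS11 with siCtrl, collagen genes moved in both directions, from a 5.09-fold fall of COL11A1 to a 5.15-fold rise of COL15A1 in U2OS-AsiSI. There, 39 of 44 members passed the filter on low counts. By the quasi-likelihood test of edgeR, 29 of them had an adjusted p under 0.05, with 16 higher and 13 lower under siINTS11. Of all 20441 genes tested there, 68.0% passed (35.4% higher and 32.6% lower), so the members' share of 74.4% is near the background. In U2OS, 32 of 38 tested members passed, 15 higher and 17 lower, a share of 84.2% against a background of 66.9% (34.5% higher and 32.4% lower). When library totals alone set the scale the split was 22 higher and 9 lower in U2OS-AsiSI and 18 and 15 in U2OS, with the median log2 fold change of all genes moving from 0.03 to 0.22 and from 0.02 to 0.22. Changes of at least 2-fold were called for 10 members in each line. In U2OS-AsiSI 5 rose and 5 fell so far, out of 39, where 13.0% of all genes did (9.73% higher and 3.26% lower). In U2OS 4 rose and 6 fell, out of 38, where 12.9% of all genes did (9.62% higher and 3.24% lower). The members' median log2 fold change was 0.06 in U2OS-AsiSI and -0.00 in U2OS, beside 0.03 and 0.02 for all genes. The median size of the change, regardless of sign, was 0.63 and 0.55 for members and 0.35 and 0.33 for all genes. COL6A6 in U2OS-AsiSI passed the filter through its siINTS11 libraries alone and had to be higher there. COL2A1 in U2OS-AsiSI and COL6A5 in U2OS reached the cutoff in all siINTS11 libraries but not in every siCtrl library, so the filter did not fix their direction. Without COL6A6 and COL2A1, 28 of 37 members passed in U2OS-AsiSI, and without COL6A5 31 of 37 in U2OS. Of these, 4 rose and 5 fell by at least 2-fold in U2OS-AsiSI, and 3 rose and 6 fell so far in U2OS. Fewer cells that transcribe a gene and less transcription per cell cannot be told apart in these bulk libraries. Of the 44 members, 13 overlap another annotated gene on their own strand, all small RNA genes, pseudogenes or genes known by clone names, and 21 overlap one on the other strand. Members that overlap none on either strand were more often higher than lower. In U2OS-AsiSI 9 were called higher and 2 lower of 17, and in U2OS 8 higher and 4 lower of 16. At 2-fold or more, 3 and 2 of them rose and 0 fell in either line. In U2OS-AsiSI COL6A6, which had to be higher, is among both the 9 and the 3. In U2OS COL6A5, set aside above, is among both the 8 and the 2. Shares over all genes that overlap none were not computed, so this lean is not read as a trait of these members.

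The lines share no library in this comparison, and 34 of the 38 members tested in both had the same sign. All 27 members called in both moved the same way, 14 higher and 13 lower, and 8 of these were at least 2-fold in both. Of all 20121 genes tested in both, 17490 had the same sign, and 11357 of the 11417 called in both moved the same way. The members' agreement is thus near that of all genes. Across those 38 genes Pearson's r between the lines was 0.97, and 0.92 across all 20121 genes tested in both (genes share libraries and are not replicates). COL6A1 was called in U2OS-AsiSI alone, and COL3A1, COL6A3, COL23A1, COL14A1 and COL13A1 in U2OS alone. COL2A1, COL4A3, COL4A6, COL6A2 and COL22A1 were called in neither. COL9A1, COL9A3, COL10A1, COL11A2 and COL1A2 were not tested in either, and COL6A6 not in U2OS. The labels call the libraries triplicates and do not say whether they came from separate cultures, so p-values measure the spread between these libraries, which may be technical.

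**Figure D2:**
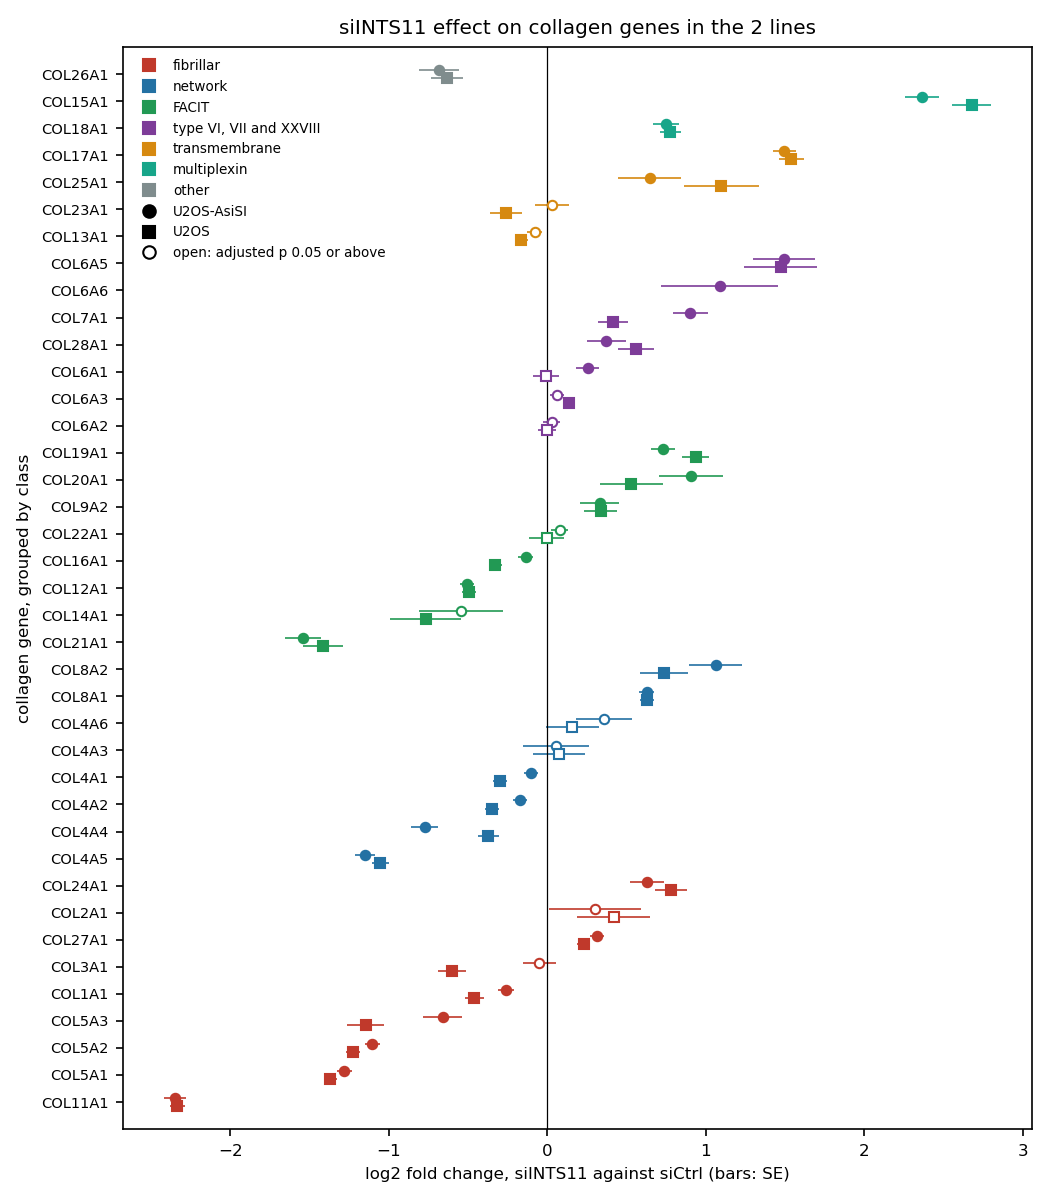
Log2 fold change of siINTS11 against siCtrl, with SE bars, for each collagen gene tested, coloured by structural family, in U2OS-AsiSI (circles) and U2OS (squares), with open symbols where the adjusted p was 0.05 or above. The ends of the range are COL11A1 at -2.35 and -2.33 and COL15A1 at 2.36 and 2.68, and the 2 lines lie close together for most genes.

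Among fibrillar collagens, those of types V and XI fell most. COL11A1 (232 kb, chr1:102876467-103108872, minus strand), the chain of type XI that with type V limits fibril thickness, had 87.9, 72.8 and 76.6 CPM in AsiSI siCtrl and 17.2, 14.6 and 14.5 in AsiSI siINTS11. In U2OS its values were 97.96, 102 and 96.3 with siCtrl, then 20.5, 19.3 and 20.2 with siINTS11. Every siINTS11 library lay far below every siCtrl library. The log2 fold change was -2.35 (SE 0.07, adjusted p 8.39e-23) in U2OS-AsiSI and -2.33 (SE 0.05, adjusted p 7.4e-35) in U2OS, about 5.09-fold and 5.04-fold lower. The 250 bases before the RefSeq start of COL11A1 are shown because it was the collagen with the largest fall. They were taken from RefSeq (GRCh38.p14, chr1:103108523-103108772, minus strand), lie within the deposited span of the gene and in no GENCODE exon, and carry 3 GC boxes and 1 CCAAT box. In each sequence printed, capitals mark 3 motifs on either strand. They are the GC box, spelled GGGCGG, the box named CCAAT after its own letters, and the TATA box, spelled TATAAA.
COL11A1: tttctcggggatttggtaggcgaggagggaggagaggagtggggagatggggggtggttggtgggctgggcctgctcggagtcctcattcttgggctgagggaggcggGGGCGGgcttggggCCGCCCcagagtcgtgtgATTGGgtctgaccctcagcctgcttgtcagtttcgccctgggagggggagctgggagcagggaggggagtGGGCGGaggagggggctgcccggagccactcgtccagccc

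Type V collagen, which nucleates type I fibrils and is mutated in classical Ehlers-Danlos syndrome, lost reads from all 3 of its genes. COL5A1 (203 kb) had 404, 387 and 384 CPM in AsiSI siCtrl and 154, 153 and 174 in AsiSI siINTS11. In U2OS it had 467, 461 and 494 with siCtrl, then 179.8, 197 and 185 with siINTS11. The siRNA groups lay far apart in both lines, with log2 fold changes of -1.28 (SE 0.05) and -1.37 (SE 0.04). COL5A2 (193 kb) fell by 1.10 (SE 0.05) in U2OS-AsiSI and by 1.23 (SE 0.04) in U2OS, and COL5A3 (50.9 kb) by 0.66 (SE 0.12) and 1.15 (SE 0.12). Adjusted p-values of the 3 genes ran up to 2.11e-05.

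Other fibrillar chains moved less or the other way. COL1A1 had 101, 100.2 and 100.1 CPM in AsiSI siCtrl and 75.6, 84.9 and 89.9 in AsiSI siINTS11, with U2OS values of 118, 96.3 and 101 against 75.6, 79.5 and 78.3. The siRNA groups did not overlap in either line, and COL1A1 fell by 0.26 (SE 0.05) in U2OS-AsiSI and 0.46 (SE 0.06) in U2OS, but in U2OS-AsiSI not when library totals alone set the scale (-0.07, adjusted p 0.235). Of 4 osteoblast markers tested, 3 were called higher and 1 lower in each line. RUNX2 fell by 1.07 (SE 0.05) and 0.84 (SE 0.04), while ALPL rose by 1.31 (SE 0.11) and 1.47 (SE 0.12). Their part in the change of COL1A1 was not tested. COL24A1 (428 kb), expressed in developing bone, rose by 0.63 (SE 0.11) and 0.78 (SE 0.10), and COL27A1 (157 kb), a fibrillar collagen of growth plate cartilage, by 0.31 (SE 0.04) and 0.23 (SE 0.04). In all, 5 fibrillar members were called lower and 2 higher of 9 tested in U2OS-AsiSI, and 6 lower and 2 higher of 9 in U2OS. Of all genes, 32.6% were lower and 35.4% higher in U2OS-AsiSI and 32.4% and 34.5% in U2OS, and these shares apply to the families below as well. The median was -0.26 and -0.60.

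COL3A1, the type III chain of skin and vessel walls, differed between the lines. In U2OS it had 12.2, 10.3 and 9.59 CPM with siCtrl, then 7.31, 7.09 and 7.18 with siINTS11, a fall of 0.60 (SE 0.09, adjusted p 1.66e-07). In AsiSI siCtrl it was already at 6.17, 5.35 and 5.92, and it stood at 5.17, 5.63 and 5.95 in AsiSI siINTS11, where the groups overlapped (log2 fold change -0.05, SE 0.10, adjusted p 0.678). The siINTS11 effect in U2OS-AsiSI minus that in U2OS was 0.51 (SE 0.14, adjusted p 0.0306 by edgeR's interaction term). Only COL3A1 among the 40 members tested passed for that difference, a share of 2.50%, and 3.87% of all genes did (0.762% higher and 3.10% lower). The call was lost when all libraries were thinned to the smallest total (0.45, adjusted p 0.108). It was also lost without U2OS siCtrl replicate 1, without any 1 of the U2OS siINTS11 replicates, without AsiSI siCtrl replicate 2 and without AsiSI siINTS11 replicate 2 or 3, at values of 0.42 to 0.54 and adjusted p of 0.0553 to 0.117. The type V gene beside it, COL5A2, lies tail to tail at 19.2 kb and fell in both lines. The log2 ratio of COL3A1 to COL5A2 reads within a library was -3.22, -3.49 and -3.56 in the U2OS libraries given siCtrl, then -2.79, -2.75 and -2.84 with siINTS11. The U2OS-AsiSI values were -3.83, -3.98 and -3.87 with siCtrl, then -2.99, -2.88 and -2.66 with siINTS11. It was thus higher in every siINTS11 library of a line than in any siCtrl library of it.

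Among network-forming collagens, 4 were called lower and 2 higher of 8 tested in each line, and the fall was uneven between neighbours. The 6 type IV genes lie as 3 head-to-head pairs, COL4A1 with COL4A2 on chromosome 13, COL4A3 with COL4A4 on chromosome 2, and COL4A5 with COL4A6 on the X chromosome, each pair starting from a common stretch in opposite directions. The starts lie 126, 418 and 379 bases apart in RefSeq. COL4A5 (258 kb, chrX:108439844-108697545, plus strand), a chain of the glomerular basement membrane that is mutated in X-linked Alport syndrome, had 38.8, 35.3 and 36.4 CPM in AsiSI siCtrl and 17.8, 15.4 and 16.4 in AsiSI siINTS11. In U2OS it had 49.0, 53.6 and 58.6 with siCtrl, then 24.8, 26.7 and 27.8 with siINTS11. It was lower in each siINTS11 library than in any siCtrl library of its line, and fell by 1.15 (SE 0.06) and 1.05 (SE 0.06). COL4A6, read from the other strand of the same start region, had 40 to 66 reads under siCtrl and 34 to 85 under siINTS11, and its log2 fold changes of 0.36 (SE 0.17, adjusted p 0.070) and 0.16 (SE 0.17, adjusted p 0.404) did not pass. In U2OS-AsiSI it was called higher under library totals (0.55, adjusted p 0.00793), when a mean of 50 reads was required (0.41, adjusted p 0.038), among genes under 0.1 reads per base (0.39, adjusted p 0.0484), without AsiSI siCtrl replicate 1 (0.44, adjusted p 0.041) and without AsiSI siINTS11 replicate 2 (0.50, adjusted p 0.0138).

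The sequence before COL4A5 is shown because these neighbours diverged. It is from RefSeq (GRCh38.p14, chrX:108439588-108439837, plus strand), it lies between the 2 starts, and it holds 2 CCAAT boxes on opposite strands. The 111 bases between COL4A4 and COL4A3 outside any GENCODE exon (chr2:227164454-227164564, plus strand, COL4A4 to the left) are shown beside it and hold 1 GC box.
COL4A5: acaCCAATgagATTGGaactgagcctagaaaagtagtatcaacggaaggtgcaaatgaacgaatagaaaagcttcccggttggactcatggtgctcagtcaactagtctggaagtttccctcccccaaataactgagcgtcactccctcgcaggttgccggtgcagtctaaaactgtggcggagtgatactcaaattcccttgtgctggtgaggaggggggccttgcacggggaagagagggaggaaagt
COL4A4/COL4A3: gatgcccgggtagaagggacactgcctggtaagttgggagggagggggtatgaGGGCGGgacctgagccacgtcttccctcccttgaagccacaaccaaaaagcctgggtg

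COL4A4, which like COL4A3 is mutated in autosomal Alport syndrome, had 22.0, 21.2 and 17.5 CPM in AsiSI siCtrl and 11.8, 10.3 and 13.3 in AsiSI siINTS11, and in U2OS 27.8, 29.05 and 25.4 with siCtrl, then 21.9, 19.3 and 23.8 with siINTS11. The siRNA groups were apart in both lines, and COL4A4 fell by 0.77 (SE 0.08) and 0.37 (SE 0.07). The difference between the lines was -0.43 (SE 0.13, adjusted p 0.0503), called with no filter on low counts (adjusted p 0.0059) and without U2OS siCtrl replicate 2, U2OS siINTS11 replicate 2, AsiSI siCtrl replicate 3 or AsiSI siINTS11 replicate 3 (-0.53 to -0.48, adjusted p 0.00962 to 0.0433). COL4A3 had 26 to 71 reads per library and overlapped between siRNAs in both lines, with log2 fold changes of 0.05 (SE 0.21) and 0.07 (SE 0.16). COL4A1 had 385, 371 and 369 CPM in AsiSI siCtrl, 344, 347 and 353 in AsiSI siINTS11, and in U2OS 347, 321 and 349 with siCtrl, then 267, 291 and 287 with siINTS11. COL4A2 had 872, 866 and 882, then 771, 785 and 758, then 784, 732 and 791, and 601, 632 and 617 CPM in the same order of groups. Both genes sat lower under siINTS11 with no overlap. They fell together by 0.30 (SE 0.04) and 0.35 (SE 0.04) in U2OS. In U2OS-AsiSI their changes of -0.10 (SE 0.04, adjusted p 0.0375) and -0.17 (SE 0.04, adjusted p 0.00102) turned to 0.09 and 0.02 when library totals alone set the scale. There COL4A1 also did not pass without AsiSI siCtrl replicate 1 or 2 or without AsiSI siINTS11 replicate 1 or 2 (-0.11 to -0.08, adjusted p 0.0737 to 0.152).

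Ratios of reads within a library need no scaling between libraries. From siCtrl to siINTS11 the log2 ratio of COL4A6 to COL4A5 rose by 1.33 (1.19 in U2OS, 1.47 in U2OS-AsiSI), that of COL4A4 to COL4A3 fell by 0.63 (-0.46 and -0.80), that of COL3A1 to COL5A2 rose by 0.84 (0.63 and 1.05), and that of COL4A1 to COL4A2 rose by 0.06 (0.05 and 0.07). An exact two-sided permutation test of the siRNA labels within each line gave p = 0.005 for each of these, the smallest its 400 splits allow (0.00625 adjusted over 5 pairs). For COL19A1 and COL9A1, which lie tail to tail, p was 0.495, with COL9A1 too scarce to give a ratio. COL4A1 and COL4A2 spans overlap by 1346 bases on opposite strands. The other network members, COL8A1 and COL8A2 of the corneal Descemet membrane, rose. COL8A1 (161 kb) gained 0.63 (SE 0.05) in each line, and COL8A2, with 39 to 65 reads under siCtrl and 61 to 100 under siINTS11, was called higher in both.

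**Figure D3:**
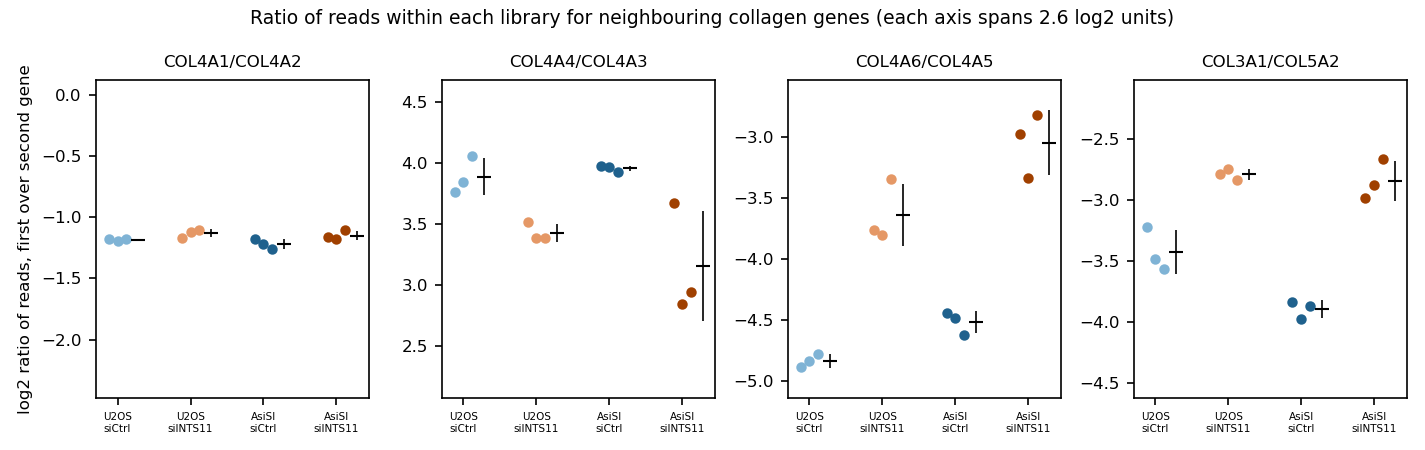
Log2 ratio of the reads of neighbouring collagen genes in each of 12 libraries (points, by group), with the mean and SD beside them, every axis covering 2.6 log2 units. The COL4A6 to COL4A5 ratio is 1.19 higher under siINTS11 in U2OS and 1.47 higher in U2OS-AsiSI, while the COL4A1 to COL4A2 ratio moves by 0.05 and 0.07.

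FACITs split evenly, with 3 higher and 3 lower of 8 tested in U2OS-AsiSI and 3 and 4 of 8 in U2OS. COL21A1 (338 kb, chr6:56056590-56394094, minus strand), a FACIT described in vessel walls, had 8.04, 7.08 and 7.05 CPM in AsiSI siCtrl and 2.62, 2.42 and 2.53 in AsiSI siINTS11. In U2OS it had 7.14, 5.76 and 7.30 with siCtrl, then 2.20, 2.35 and 3.13 with siINTS11. No siINTS11 library reached a siCtrl library, and COL21A1 fell by 1.54 (SE 0.12) and 1.41 (SE 0.13). The stretch before its RefSeq start (GRCh38.p14, chr6:56394129-56394378, minus strand), printed as the second largest fall, has no match to the 3 motifs.
COL21A1: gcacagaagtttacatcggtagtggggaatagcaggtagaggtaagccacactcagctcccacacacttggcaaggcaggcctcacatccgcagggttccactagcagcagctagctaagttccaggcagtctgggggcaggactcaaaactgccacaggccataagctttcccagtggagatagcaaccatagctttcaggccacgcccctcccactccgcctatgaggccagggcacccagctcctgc

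COL12A1, at 505, 488 and 522 CPM in AsiSI siCtrl and 360.5, 364 and 341 in AsiSI siINTS11, and at 539, 509 and 528 against 391.6, 365 and 387 in U2OS, was the most transcribed FACIT and lay lower in all 6 siINTS11 libraries. It fell by 0.50 (SE 0.05) and 0.49 (SE 0.04). COL16A1, a FACIT of fibrils and fibroblast surfaces, fell by 0.33 (SE 0.04) in U2OS. In U2OS-AsiSI its -0.14 (SE 0.05, adjusted p 0.014) turned to 0.06 under library totals and did not pass without AsiSI siCtrl replicate 2 (-0.11, adjusted p 0.0964) or without AsiSI siINTS11 replicate 1 (-0.10, adjusted p 0.0904). COL19A1, at 346 kb among the longest members, had 14.9, 15.8 and 18.2 CPM in AsiSI siCtrl and 29.1, 28.6 and 23.1 in AsiSI siINTS11, and 7.64, 10.6 and 9.80 against 19.8, 18.3 and 17.1 in U2OS. It was higher in every siINTS11 library than in any siCtrl library of its line and rose by 0.73 (SE 0.08) and 0.94 (SE 0.08). COL9A2, a type IX chain of cartilage, rose by 0.34 (SE 0.10) in U2OS. Its 0.33 (SE 0.12, adjusted p 0.0181) in U2OS-AsiSI did not pass without AsiSI siINTS11 replicate 2 (0.20, adjusted p 0.158) or replicate 3 (0.31, adjusted p 0.0764). COL20A1 (21 to 54 reads) was called higher in both lines, in U2OS not without U2OS siCtrl replicate 2 (0.40, adjusted p 0.123) or U2OS siINTS11 replicate 2 (0.47, adjusted p 0.0701). COL14A1 (15 to 41 reads) was called lower in U2OS, and in U2OS-AsiSI only without AsiSI siCtrl replicate 1 or 3 or AsiSI siINTS11 replicate 1 (-0.71 to -0.63). COL22A1 (3251 to 5241 reads), a collagen of muscle-tendon junctions, was called in neither line. In U2OS-AsiSI it was called higher under library totals (0.27, adjusted p 2.07e-05), when a mean of 50 reads was required (0.13, adjusted p 0.0307) and without AsiSI siCtrl replicate 1 (0.12, adjusted p 0.0474), and in U2OS lower without U2OS siCtrl replicate 3 (-0.098, adjusted p 0.0439).

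Types VI, VII and XXVIII, which share von Willebrand factor A domains, had 5 members called higher and 0 lower of 7 tested in U2OS-AsiSI and 4 higher and 0 lower of 6 in U2OS. COL6A6 in U2OS-AsiSI passed the filter through its siINTS11 libraries alone and had to be higher. COL6A5 in U2OS reached the cutoff in all siINTS11 libraries but not in every siCtrl library. Without COL6A6 the count was 4 of 6 in U2OS-AsiSI, and without COL6A5 it was 3 of 5 in U2OS. Of all genes, 35.4% were higher and 32.6% lower in U2OS-AsiSI, and 34.5% and 32.4% in U2OS. COL7A1 (31.2 kb, chr3:48564073-48595267, minus strand), the anchoring fibril protein that is mutated in dystrophic epidermolysis bullosa, had 4.88, 5.79 and 4.31 CPM in AsiSI siCtrl and 7.89, 9.94 and 10.3 in AsiSI siINTS11, and 5.86, 5.17 and 6.31 against 7.91, 8.11 and 7.47 in U2OS. The siRNA groups did not overlap, and COL7A1 rose by 0.90 (SE 0.11) and 0.42 (SE 0.10). The difference of 0.45 between the lines had an adjusted p of 0.0899. The bases before the RefSeq start of COL7A1 (GRCh38.p14, chr3:48595330-48595579, minus strand) are shown as it was among the 4 largest rises in U2OS-AsiSI of members with a mean of at least 100 reads, and hold 1 TATA box and 3 GC boxes.
COL7A1: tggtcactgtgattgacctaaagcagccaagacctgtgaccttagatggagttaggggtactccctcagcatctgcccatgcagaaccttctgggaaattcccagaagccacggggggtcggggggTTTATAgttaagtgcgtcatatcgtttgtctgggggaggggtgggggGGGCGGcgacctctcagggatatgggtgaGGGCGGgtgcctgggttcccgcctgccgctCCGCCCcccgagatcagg

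The main chains of type VI moved less. COL6A3 had 175, 175 and 176 CPM in AsiSI siCtrl and 188, 180.5 and 178 in AsiSI siINTS11, a change of 0.06 (SE 0.04, adjusted p 0.206) that was called higher under library totals (0.25, adjusted p 4.57e-07) and when a mean of 50 reads was required (0.12, adjusted p 0.0168). In U2OS it had 119, 116 and 125 with siCtrl, then 133, 137 and 133 with siINTS11, and rose by 0.14 (SE 0.04, adjusted p 0.00246). COL6A1 rose by 0.26 (SE 0.07) in U2OS-AsiSI and was at -0.01 (SE 0.08) in U2OS, and COL6A2, its neighbour on chromosome 21, was at 0.03 (SE 0.05) and -0.00 (SE 0.06). In U2OS-AsiSI COL6A2 was called higher under library totals (0.22, adjusted p 0.00083). The U2OS values of both turned positive under library totals (0.19 for COL6A1 and 0.20 for COL6A2). COL28A1, a short-helix relative of type VI, rose by 0.37 (SE 0.12) and 0.56 (SE 0.11), the former not past the threshold in DESeq2 (adjusted p 0.0551). COL6A5 (10 to 79 reads) rose in both lines, and COL6A6 (2 to 14 reads) was called higher in U2OS-AsiSI, but not by DESeq2 (adjusted p 0.0843).

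Transmembrane collagens were led by COL17A1 (54.6 kb, chr10:104031286-104085880, minus strand), the collagen of hemidesmosomes, which fasten epithelial cells to the basement membrane. It had 9.53, 8.77 and 11.4 CPM in AsiSI siCtrl and 27.4, 27.1 and 28.6 in AsiSI siINTS11, and 6.92, 7.83 and 9.45 against 23.3, 25.3 and 23.2 in U2OS. The lowest siINTS11 library was above the highest siCtrl library in both lines, and COL17A1 rose by 1.497 (SE 0.07) and 1.54 (SE 0.08), or 2.82-fold and 2.91-fold. Of the keratinocyte markers, TP63 changed by -0.13 (adjusted p 0.525) and 0.10 (adjusted p 0.576), KRT5 had at most 3 reads and KRT14 at most 11 in any library, and their summed level was 1.57 to 2.62 CPM over siCtrl libraries and 1.61 to 2.9995 over siINTS11 libraries. Their part in the result was not tested. Of the 250 bases before the RefSeq start of COL17A1, the 173 farthest from the start are printed for the second largest rise (GRCh38.p14, chr10:104085958-104086130, minus strand), since the others overlap a GENCODE exon. They hold 1 TATA box and 1 CCAAT box.
COL17A1: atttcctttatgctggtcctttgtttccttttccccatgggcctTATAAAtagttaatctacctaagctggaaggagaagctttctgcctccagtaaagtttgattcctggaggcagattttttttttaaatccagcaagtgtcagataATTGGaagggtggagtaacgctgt

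COL25A1, the longest member and a collagen found in amyloid plaques, had 18 to 35 reads under siCtrl and 36 to 60 under siINTS11 and was called higher in both lines. COL13A1, which organises neuromuscular junctions, was the most transcribed transmembrane member at 1.76 ± 0.0707 CPM per kb in AsiSI siCtrl. It fell by 0.16 (SE 0.04) in U2OS, where library totals gave 0.04, and was at -0.08 (SE 0.05, adjusted p 0.118) in U2OS-AsiSI. There DESeq2 (-0.10, adjusted p 0.0485) and a replicate block (-0.079, adjusted p 0.0419) called it lower and library totals called it higher (0.11, adjusted p 0.0116). COL23A1 was called lower in U2OS (-0.26, SE 0.10, adjusted p 0.0238), but not without U2OS siCtrl replicate 3 (-0.15, adjusted p 0.220) or U2OS siINTS11 replicate 3 (-0.17, adjusted p 0.182), and was at 0.03 (SE 0.11) in U2OS-AsiSI. COL26A1, which fits none of these families, fell by 0.68 (SE 0.13) and 0.63 (SE 0.10).

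Both multiplexins, proteoglycan-like collagens of basement membrane zones, rose. COL15A1 (128 kb, chr9:98943179-99070792, plus strand) had 2.48, 2.599 and 2.23 CPM in AsiSI siCtrl and 11.4, 13.2 and 13.1 in AsiSI siINTS11, and 1.64, 1.53 and 1.90 against 9.84, 12.4 and 10.8 in U2OS. Its siINTS11 libraries lay well above all siCtrl libraries, and the log2 fold change was 2.36 (SE 0.11, adjusted p 3.39e-18) and 2.68 (SE 0.12, adjusted p 7.36e-23), or 5.15-fold and 6.40-fold. COL18A1 (109 kb), whose C-terminal fragment is endostatin, had 10.4, 11.99 and 9.93 CPM in AsiSI siCtrl and 16.8, 16.9 and 20.4 in AsiSI siINTS11, and 11.6, 12.4 and 11.95 against 20.4, 21.5 and 21.1 in U2OS. It too was apart between siRNAs and rose by 0.75 (SE 0.08) and 0.78 (SE 0.07). Endothelial cells make both proteins. Of 3 endothelial markers, PECAM1 and CDH5 rose in both lines, KDR had 0 to 7 reads, and the summed level of the 3 went from 1.80 to 2.40 CPM over siCtrl libraries to 5.68 to 6.995 CPM over siINTS11 libraries. Their part in the result was not tested.

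**Figure D4:**
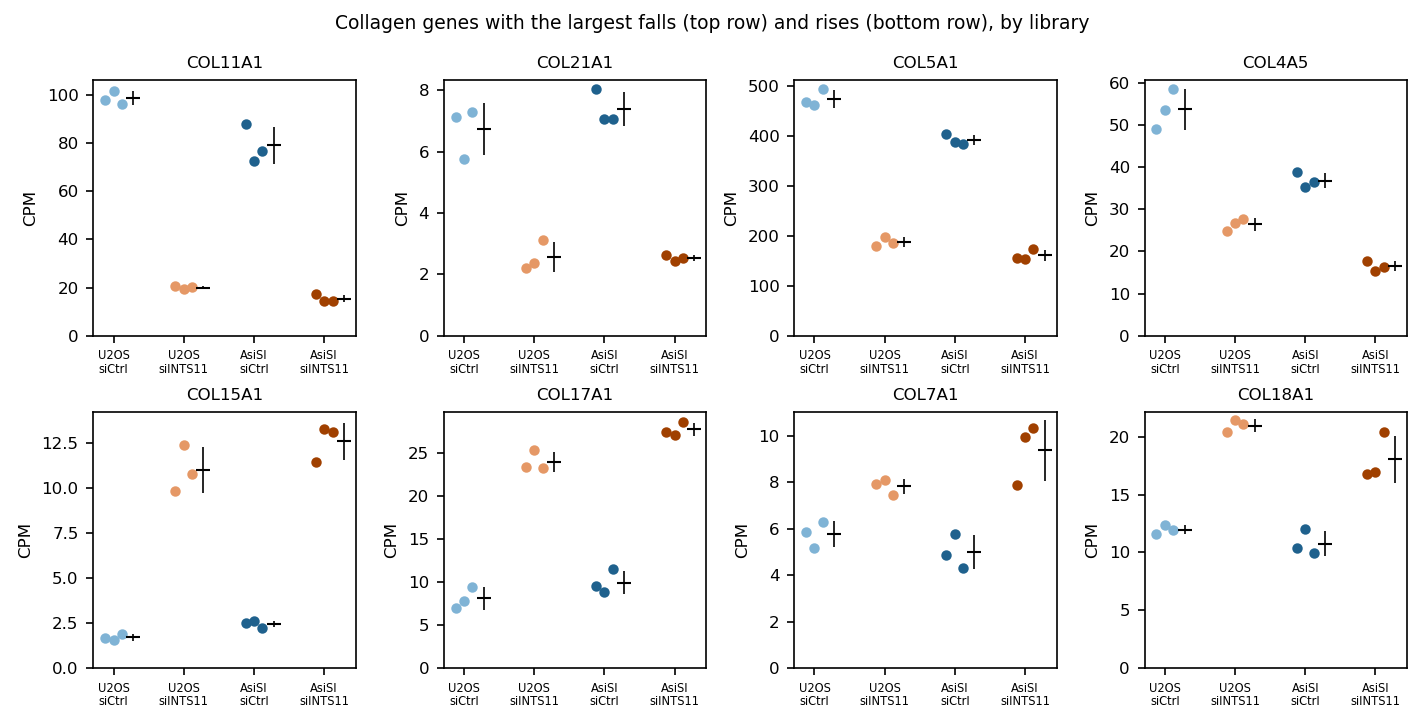
CPM in each library of the 4 collagen genes with the largest falls (top) and the 4 with the largest rises (bottom) in U2OS-AsiSI among those with a mean of at least 100 reads, with the mean and SD of the 3 libraries of a group beside them (AsiSI on the axis stands for U2OS-AsiSI with OHT). In all 8 genes and both lines the siCtrl and siINTS11 libraries do not overlap, from COL11A1 at 72.8 to 102 against 14.5 to 20.5 CPM to COL7A1 at 4.31 to 6.31 against 7.47 to 10.3. The genes were chosen by their change in these U2OS-AsiSI libraries, so the gap there follows in part from that choice.

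Long collagen genes moved both ways, as did long genes as a whole, which were lower more often than higher under siINTS11. Over genes of 100 kb or more, the median log2 fold change was -0.24 in U2OS-AsiSI and -0.20 in U2OS, with 1019 genes higher and 2490 lower of 4377, and 1079 higher and 2459 lower of 4417. The 26 long collagens had a median of 0.04 in U2OS-AsiSI, 10 higher and 10 lower, and the 25 tested in U2OS had -0.16, 9 higher and 13 lower. In U2OS 52% of them were lower, near the 55.7% of all genes that long, and in U2OS-AsiSI 38.5% beside 56.9%. From 200 kb up, 3 collagens were higher and 7 lower of 12 in U2OS (median -0.30), where 55.5% of all genes were lower (median -0.21). In U2OS-AsiSI 3 were higher and 5 lower of 12 (median -0.07), where 55.9% of all genes were lower (median -0.25). Spearman's rho between span and log2 fold change was -0.26 over the 39 members and -0.31 over all genes in U2OS-AsiSI, and -0.15 over 38 members and -0.26 over all genes in U2OS. These are descriptions across genes of the same libraries. Long members stood at both ends, with COL11A1 (232 kb), COL21A1 (338 kb), COL5A1 (203 kb) and COL4A5 (258 kb) down and COL15A1 (128 kb), COL19A1 (346 kb), COL24A1 (428 kb) and COL25A1 (494 kb) up. Among the 4 tested members under 30 kb, 3 were called higher and COL1A1 lower in U2OS-AsiSI, where 44.8% of all genes that short were higher and 16.5% lower. In U2OS 2 were called higher, COL1A1 lower and COL6A1 was not called, beside 42.3% and 16.96% of all genes that short.

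**Figure D5:**
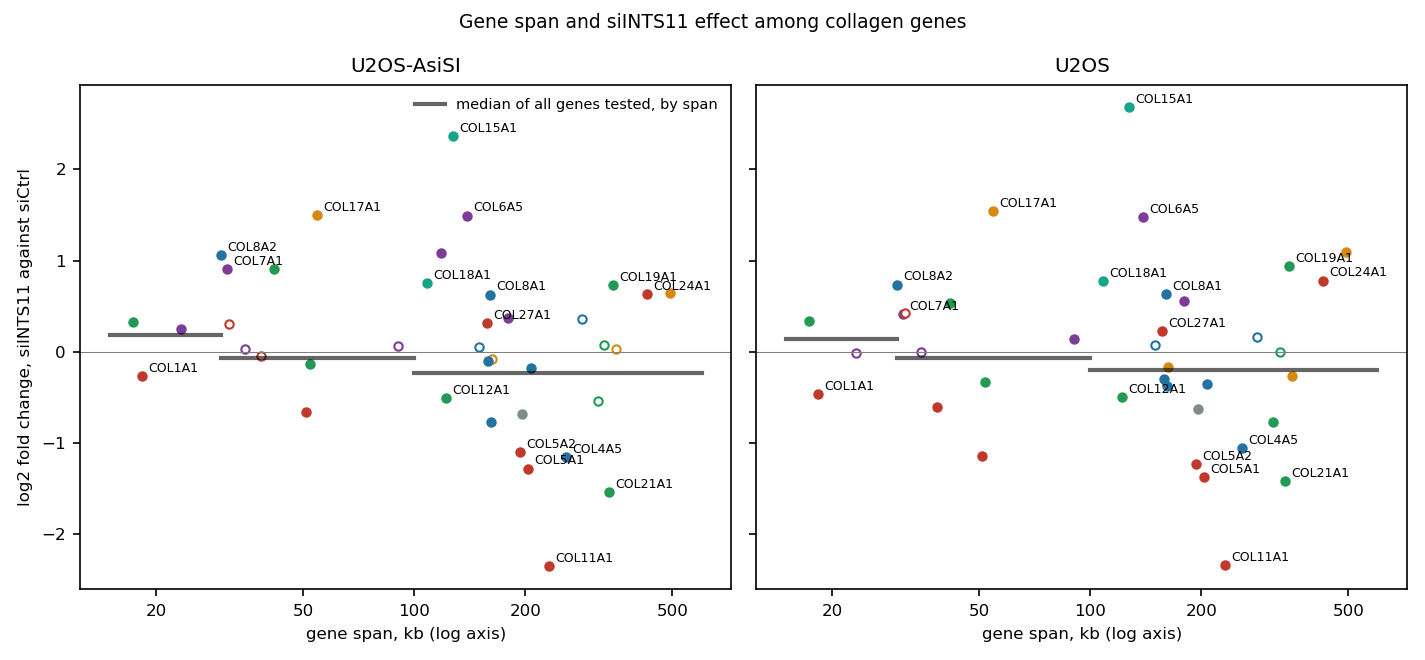
Log2 fold change of siINTS11 against siCtrl over gene span in kb (log axis) for each collagen gene tested, in U2OS-AsiSI (left) and U2OS (right), coloured by structural family as in the plot of fold changes, open where the adjusted p was 0.05 or above, with grey lines for the median of all genes tested of that span. Collagens over 100 kb lie from -2.35 to 2.36 on the left, around a line for all genes at -0.24.

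Under siCtrl, U2OS-AsiSI with OHT and U2OS differed by less than 2-fold in every member tested. Of 39 tested, 19 passed the threshold, 10 higher in U2OS-AsiSI and 9 lower, a share of 48.7% against 34.9% of all genes (17.8% higher and 17.2% lower, with 0.522% at 2-fold or more). COL3A1 was 0.88 lower (SE 0.10) and COL26A1 0.70 lower (SE 0.11). COL5A2 was lower by 0.40, COL11A1 by 0.32 and COL5A1 by 0.27. COL5A3, the other type V gene, was at -0.04 (SE 0.10, adjusted p 0.795) with the groups overlapping. COL4A5 was 0.54 lower, COL23A1 0.47 lower (SE 0.11) and COL4A4 0.43 lower. COL19A1 was 0.79 higher (SE 0.09), COL6A3 0.55 higher (SE 0.04) and COL13A1 0.50 higher (SE 0.04), with smaller rises in COL27A1 (0.20), COL4A2 (0.19) and COL4A1 (0.15). COL17A1 was 0.30 higher and not past the threshold without U2OS siCtrl replicate 1 or 2 or without AsiSI siCtrl replicate 3 (0.19 to 0.28). COL6A2 was 0.15 higher (SE 0.06, adjusted p 0.0479 by edgeR) with the groups overlapping, a call that held in 6 alternative fits and was lost in 8. Without U2OS siCtrl replicate 2, 5 members were called higher, and COL4A1 was not among them (adjusted p 0.0786). This comparison shares its siCtrl libraries with those of siINTS11, and the nuclease, OHT and the derivation of the line cannot be told apart in it.

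Genes that serve collagens moved in both directions. Lists are given by count, beside the 35.4% of all genes higher and 32.6% lower in U2OS-AsiSI and the 34.5% higher and 32.4% lower in U2OS. These shares apply to the lists of the next paragraph as well. Of 20 tested enzymes and chaperones that modify or fold chains, 9 fell and 4 rose in U2OS-AsiSI (median -0.13), and 15 fell and 4 rose in U2OS (median -0.22). P3H2, a prolyl 3-hydroxylase with a preference for type IV chains, fell by 1.76 (SE 0.07) and 1.69 (SE 0.04), and FKBP14, a prolyl isomerase of the endoplasmic reticulum, by 0.72 (SE 0.06) and 0.54 (SE 0.07). P4HA3, a prolyl 4-hydroxylase subunit, rose by 0.88 (SE 0.09) and 0.85 (SE 0.09). KDELR2, on this list, is listed at 0 in all 12 libraries.

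Of 14 genes that trim and cross-link collagen, 6 fell and 4 rose in U2OS-AsiSI and 5 fell and 4 rose in U2OS (medians -0.06 and -0.01). ADAMTS2, which removes the N-propeptide of fibrillar collagens, fell by 1.14 (SE 0.09) and 1.46 (SE 0.07), LOX, the lysyl oxidase, by 0.63 (SE 0.06) and 0.59 (SE 0.06), while TLL2, a tolloid-like protease, rose by 0.90 (SE 0.08) and 1.04 (SE 0.08). Of 8 receptors tested, 3 fell and 1 rose in U2OS-AsiSI and 6 fell and 1 rose in U2OS (medians -0.12 and -0.16). The integrin ITGA1 fell by 0.78 (SE 0.09) and 0.63 (SE 0.08), the kinase DDR2 fell by 0.36 (SE 0.05) and 0.32 (SE 0.04), and the integrin ITGA11 rose by 0.86 (SE 0.09) and 0.50 (SE 0.10). Of 8 collagenases, gelatinases and inhibitors, 5 rose and 2 fell in U2OS-AsiSI and 3 rose and 2 fell in U2OS (medians 0.22 and 0.08). MMP9, a gelatinase with 8 to 19 reads under siCtrl, rose by 2.43 (SE 0.18) and 1.93 (SE 0.25), MMP2 by 0.45 (SE 0.05) and 0.12 (SE 0.05) and the inhibitor TIMP3 by 0.33 (SE 0.04) and 0.52 (SE 0.04).

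RefSeq promoter sequences were found for 32 of the 44 members. In the 250 bases before the start, 6 of 32 held TATAAA, 9 held CCAAT and 18 held GGGCGG on either strand, beside 10.8%, 32% and 42.5% of 34943 promoters of the same length. Not every RefSeq start is that of the counted span. The start used for COL6A6, whose stretch holds TATAAA and GGGCGG, lies 43157 bases from the deposited start, and that for COL4A2 1472 bases. Over 173 bases, the length shown for COL17A1, the shares were 7.54%, 25.7% and 38.4%, and over 111 bases, the length shown for COL4A4 and COL4A3, they were 5.35%, 19.5% and 32.8%. GC content of the 32 ran from 39.2 to 88.4%. A match is a description of these letters and not a bound site.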

How the data were processed

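TT-seq of 12 libraries (4 groups of 3) was analysed from the deposited read counts per gene, which the authors made with Trimmomatic 0.36, STAR 2.7, deepTools and featureCounts among the tools used, on hg38, per the submitters' processing notes. Libraries were directional per the labels' protocols. The strand setting of the counting and the annotation release are not given in the sources used here, and reads of overlapping genes may not be separated. Yeast RNA added as a spike-in was not used here, so values are relative within a library. Of the 44 members, 18 have coordinates identical to GENCODE release 29, and all values are over the whole gene span.

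Each comparison of 2 groups was fitted on its 6 libraries, and the difference between lines on all 12, with the quasi-likelihood test of edgeR 4.0.16 in R 4.3.3 (limma 3.58.1), after filterByExpr and TMM scaling, with Benjamini-Hochberg adjustment over all genes tested and a threshold of 0.05. Alternatives were DESeq2 1.42.0, other scalings and filters, libraries thinned to the smallest total, a replicate block, and leaving out each library. CPM was counts per 1000000 of the TMM-scaled size over all 12 libraries. Ratios of neighbouring genes added 0.5 to each count and were tested by exact permutation. On simulated counts the test recovered 91.9% of 2-fold changes in U2OS-AsiSI (20148 genes) and 91.7% in U2OS (20398 genes), with 3.47% and 6.21% false calls. For the difference between lines it recovered 76.5%, with 5.63% false calls. Few genes were changed in the simulation, as many up as down, while 68.0% and 66.9% of genes were called in the data. These rates therefore do not measure errors from scaling when most genes change. Python 3.11.15, numpy 2.4.6, scipy 1.17.1 and matplotlib 3.10.9 served for summaries and figures. Motifs were searched by exact letters on both strands.

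The collagen genes and every gene list were chosen with earlier results of these data known. Log2 fold changes are named for members past the threshold with a mean of at least 100 reads in the higher group. Values in every library are given for the 4 largest rises and falls among these in U2OS-AsiSI, the 5 members highest per kb, neighbouring members and members that differ between lines. Up to 3 genes of each pathway list are named by adjusted p, and osteoblast, chondrocyte, endothelial, blood and keratinocyte markers were read beside them; marker genes named for their values were chosen after those were seen. One marker of the osteoblast list is not reported here.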

Additional observations from a re-analysis of the deposited data

Results flagged for a closer look

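COL3A1 was the collagen gene whose change under siINTS11 differed between the lines, by 0.51 (log2, U2OS-AsiSI minus U2OS, SE 0.14, adjusted p 0.0306 by edgeR's interaction term). It was lower in 3 of 3 siINTS11 libraries than in any siCtrl library in U2OS and overlapped between siRNAs in U2OS-AsiSI. COL3A1 also had the lowest siCtrl level in U2OS-AsiSI relative to U2OS of the members called, and both comparisons use the same siCtrl libraries. Thinning ended the call (adjusted p 0.108), as did leaving out 1 library in 7 of 12 cases.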

How the results depend on the processing

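When library totals alone set the scale, changes in U2OS-AsiSI turned to 0.055 for COL16A1, 0.14 for COL3A1, 0.11 for COL13A1, 0.087 for COL4A1 and 0.017 for COL4A2, and in U2OS to 0.19 for COL22A1, 0.036 for COL13A1, 0.19 for COL6A1 and 0.20 for COL6A2. With a mean count of at least 50, COL3A1 was at 0.00165 in U2OS-AsiSI, and COL22A1, COL6A1 and COL6A2 at 0.0382, 0.035 and 0.0383 in U2OS. Thinning gave 0.023 for COL6A1 and 0.077 for COL6A2. Without genes of 0.1 reads per base or more, where counts rose less than depth (COL1A1, COL12A1 and COL4A2 reach it), COL22A1, COL6A1 and COL6A2 were at 0.00808, 0.00483 and 0.00850. Among the 27 and 26 tested members that overlap no gene on their strand, 19 were called in U2OS-AsiSI (8 lower) and 20 in U2OS (10 lower), 0 for the difference between lines (0 higher) and 11 between lines under siCtrl (6 higher, 5 lower), where fewer genes were counted. Among the 17 and 16 that overlap no gene on either strand, 11 were called in U2OS-AsiSI (2 lower) and 12 in U2OS (4 lower). COL6A6, which had to be higher in U2OS-AsiSI by the filter, is among the 11. The difference between lines was called for 3 members under library totals (3 higher), 3 with no filter (2 higher, 1 lower), 4 with a mean count of at least 50 (4 higher) and 0 after thinning (0 higher); the cause was not tested.

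Leaving out 1 library at a time gave 27 to 31 calls in U2OS-AsiSI, 31 to 32 in U2OS, 0 to 2 for the difference (0 to 2 higher, 0 to 1 lower) and 13 to 18 under siCtrl (5 to 10 higher). Directions changed for members not called: in U2OS-AsiSI COL3A1 ran from -0.11 to 0.00519, COL4A3 from -0.19 to 0.29, COL23A1 from -0.00974 to 0.10 and COL2A1 from -0.039 to 0.63. In U2OS COL4A3 ran from -0.036 to 0.15, COL22A1 from -0.098 to 0.095, COL6A1 from -0.048 to 0.071, COL6A2 from -0.041 to 0.0714 and COL4A6 from -0.049 to 0.27.

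Replicate numbers do not pair the libraries: deviations of same-numbered libraries correlated at 0.45, -0.04 and -0.04 in U2OS-AsiSI and at 0.01, -0.18 and 0.19 in U2OS. The replicate block gave 30 calls in U2OS-AsiSI, COL13A1 among them (-0.079, adjusted p 0.0419), 32 in U2OS, 1 for the difference and 19 under siCtrl, and COL22A1 at 0.00314 in U2OS. Members under 100 reads are limited by depth.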
